A study of Mus musculus with 8 samples.

Results

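The 10 genes described here mark microglia, the resident macrophages of the brain, and leukocytes: Cx3cr1, P2ry12, Csf1r, Trem2, Tyrobp, Itgam, Ptprc, C1qa, Aif1 and Cd68. They were chosen by name, and every region of the deposited list that shared at least 1 bp with a gene or with the 5000 bp to each side of it was taken. This gave 58 of the 220894 regions in the list, around 10 of 21887 protein-coding genes. DNA methylation had been profiled by bisulfite sequencing of captured genomic DNA in 8 mouse cell lines, to set IDH mutant against IDH wild-type cells. The 4 IDH mutant lines were grown from brain tumours of mice with N::TVA, Cdkn2alox/lox and both Atrxlox/lox and Ptenlox/lox. The 2 IDH wild-type tumour lines, labelled as RAS gliomas, came from N::TVA; Cdkn2alox/lox mice. The 2 IDH wild-type lines of immortalized astrocytes, PDGFA and IWT-PDGFA, came from mice of the same genotype as the mutant lines, and IWT-PDGFA also expressed exogenous wild-type IDH1. All lines had a mixed C57Bl/6, 129 and FVB/n background and were kept in DMEM with 10% FBS, and each is a culture and not a tissue. None of them is a microglial or leukocyte line by its labels, and no RNA values were analysed here, so the content of such cells in the lines was not checked.

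The list gives 1 score per region for all 8 lines together, a whole number of at least 100 made by the authors. It holds no methylation level and no value of a single line, so the depth of each line is unknown. No group of lines is compared below, no score has a replicate error and no test was run. The score was used only to describe and rank regions within this list. Over all regions its median was 462, with quartiles of 235 and 768, and the median width was 460 bp. Because wider regions scored higher, many scores are also given as a percentile for width. This is the percentage of regions of like width (a difference of at most 50 bp) that scored lower, with ties split evenly. Scores given without a percentile are not adjusted for width.

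Microglia enter the brain early in development and keep their identity there through receptors that read signals from neurons and astrocytes. CX3CR1 is the receptor for the neuronal chemokine fractalkine, P2RY12 senses nucleotides, CSF1R binds the growth factors CSF1 and IL-34 that keep the cells alive, and TREM2 binds lipids and signals through the adaptor TYROBP, also called DAP12. Cells of other lineages, such as astrocytes and glial tumour cells, normally keep these genes silent, and promoter DNA methylation is one of the marks that can go with a silent gene.

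Regions at the starts of these genes were few beside all genes. These starts are also poor in CpG, and shares at starts of like CpG number are given further below. A start without a region cannot be told apart from one that was not captured or captured too little. The list gives no methylation level at any start. Of the 7 genes with a start in the RefSeq promoter table, Ptprc and Cd68 had a region within 1000 bp of it, or 28.6% (exact 95% interval 3.67 to 71.0), whereas 74.0% of the 17492 protein-coding genes with a listed start had one. Cx3cr1, P2ry12, Trem2, Itgam and Aif1 had none there. Csf1r, Tyrobp and C1qa had no listed start, so for them both ends of the gene were examined without saying which carries the promoter. At either end, 5 of the 10 genes had a region (50%, exact interval 18.7 to 81.3), against 76.5% of all protein-coding genes. These were Ptprc and Cd68 again, with Cx3cr1, Tyrobp and C1qa. With windows of 2000 bp, 4 of the 7 genes had a region at the start, with Trem2 and Aif1 added, against 77.4% of all genes, and 7 of the 10 had one at either end, against 81.0%. With windows of 500 bp, with region midpoints and with scores of 200 or more, the start count stayed at Ptprc and Cd68, against 70.2%, 71.7% and 71.2% of all genes, and the same 5 genes had a region at either end, against 71.6%, 73.8% and 73.5%. At least 1 region anywhere in the gene or its 5000 bp flanks was found for 9 of the 10 genes, and 87.9% of all protein-coding genes had one. The genes were chosen with earlier results of these data known, and the intervals cover counting error only.

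The start sequences below show the DNA that was covered at Cd68 and Ptprc and was outside the regions at P2ry12, Trem2 and Aif1. Each runs 5′ to 3′ from 250 bases before to 50 bases after the start, from RefSeq on GRCm38.p6, the assembly that mm10 names. Capitals mark CpG dinucleotides, the sites at which mouse DNA is mostly methylated.
Cd68, chr11:69666121-69666420, minus strand: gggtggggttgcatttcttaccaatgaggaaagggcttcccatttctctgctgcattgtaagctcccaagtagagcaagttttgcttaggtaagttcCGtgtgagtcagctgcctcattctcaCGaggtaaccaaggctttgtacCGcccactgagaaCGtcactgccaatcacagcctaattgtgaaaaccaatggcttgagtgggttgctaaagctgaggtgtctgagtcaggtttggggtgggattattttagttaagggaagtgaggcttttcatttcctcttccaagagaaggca
Ptprc, chr1:138175256-138175555, minus strand: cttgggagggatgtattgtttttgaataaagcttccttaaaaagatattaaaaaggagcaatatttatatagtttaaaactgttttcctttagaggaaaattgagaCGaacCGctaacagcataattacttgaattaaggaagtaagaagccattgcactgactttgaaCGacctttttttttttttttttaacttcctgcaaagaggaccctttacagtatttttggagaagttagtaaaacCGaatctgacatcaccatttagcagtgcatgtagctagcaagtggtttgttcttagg
P2ry12, chr3:59262936-59263235, minus strand: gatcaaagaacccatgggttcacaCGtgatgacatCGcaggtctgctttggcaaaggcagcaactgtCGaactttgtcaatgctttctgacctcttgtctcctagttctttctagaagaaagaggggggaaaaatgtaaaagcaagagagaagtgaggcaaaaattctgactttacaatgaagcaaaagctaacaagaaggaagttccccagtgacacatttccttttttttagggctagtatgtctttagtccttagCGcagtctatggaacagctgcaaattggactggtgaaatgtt
Trem2, chr17:48346151-48346450, plus strand: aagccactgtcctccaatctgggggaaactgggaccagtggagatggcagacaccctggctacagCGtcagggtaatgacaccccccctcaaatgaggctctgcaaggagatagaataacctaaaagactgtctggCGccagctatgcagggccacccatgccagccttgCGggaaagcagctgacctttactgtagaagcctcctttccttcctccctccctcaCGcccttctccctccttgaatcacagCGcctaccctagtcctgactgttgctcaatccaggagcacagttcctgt
Aif1, chr17:35176003-35176302, minus strand: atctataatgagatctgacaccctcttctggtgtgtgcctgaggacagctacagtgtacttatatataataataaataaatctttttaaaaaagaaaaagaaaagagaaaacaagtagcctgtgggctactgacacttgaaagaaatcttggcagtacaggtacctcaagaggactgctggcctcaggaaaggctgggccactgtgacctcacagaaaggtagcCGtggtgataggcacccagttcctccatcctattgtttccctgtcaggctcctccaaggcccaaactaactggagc
None of them is a dense run of CpG. The Aif1 sequence holds 1 CpG, those of Cd68, Ptprc and P2ry12 hold 4 each and that of Trem2 holds 5. The Ptprc entry is the upstream one of 2 listed starts, and the other, 179 bp further downstream, holds 2.

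**Figure D1:**
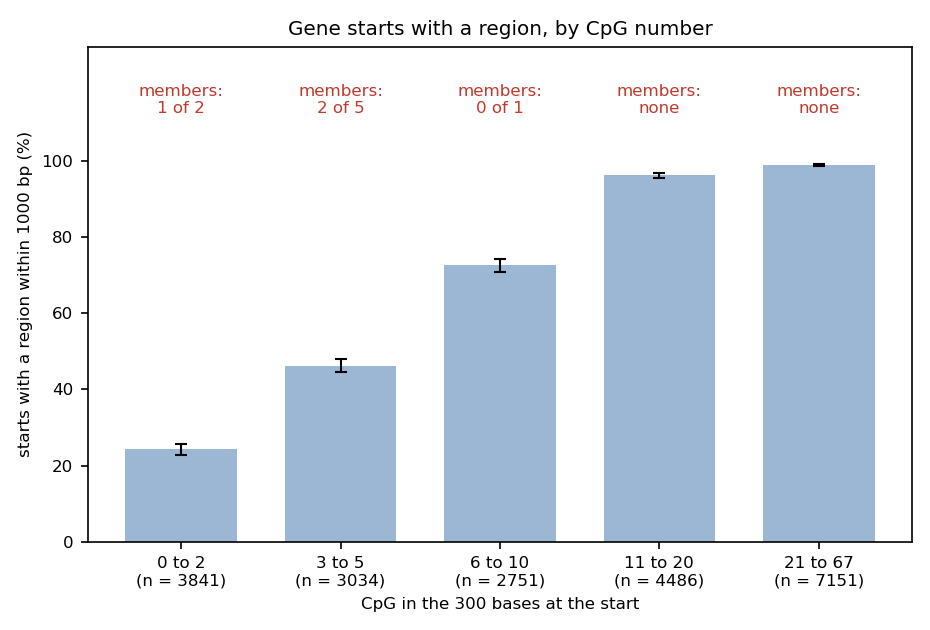
Percentage of gene starts (vertical axis) with a region within 1000 bp, by the number of CpG in the 300 bases at the start (horizontal axis, with the number of starts); bars are all starts of protein-coding genes, error bars are 95% Wilson intervals, and red text counts the starts of the microglia and leukocyte genes. The share climbs across the bars from 24.3% to 99.1%, and all 8 member starts fall in the 3 bars on the left, where 3 of them had a region.

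All 8 listed starts of the 7 genes were poor in CpG. They held 1 to 6 CpG with a median of 4.0, whereas the 21263 starts of all protein-coding genes had a median of 13 and quartiles of 4.0 and 24.0. Itgam, with 6, had the most. Across all starts, a region was present within 1000 bp of 24.3% of those with 0 to 2 CpG (95% Wilson interval 22.9 to 25.6) and of 46.2% of those with 3 to 5 (44.5 to 48.0). The share was 72.7% with 6 to 10 CpG, 96.3% with 11 to 20 and 99.1% with 21 or more. Among starts whose CpG number differed by at most 1, the share with a region was 24.3% for Aif1, 46.2% for P2ry12 and Cd68, 55.1% for Cx3cr1 and Trem2 and 61.4% for Itgam. For the Ptprc starts it was 46.2% and 30.3%. The member starts with a region numbered 3 of 8, and the 2 Ptprc starts among them share a single region. At starts of like CpG number the shares thus ran from 24.3% to 61.4%. No joint share at like CpG number was computed, so the 3 of 8 member starts have no matched value beside them. The 74.0% over all genes is not matched for CpG.

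The letters GAGGAA, the core of the sequence bound by PU.1, a transcription factor of the macrophage lineage, were searched on both strands of the same 300 bases. They occurred in 1 or more starts of 5 of the 7 genes, Trem2, Itgam, Ptprc, Aif1 and Cd68. In all, 5 of 8 member starts held them, against 27.4% of all starts. In Ptprc only the upstream of the 2 starts did, and the 300 bases of these 2 starts overlap. Both genes with a region at the start and 3 of the 5 without one thus hold these letters. The letters TATAAA were searched likewise and occurred in 1 of 8 member starts, against 12.6% of all starts. A match of 6 letters is a description of the sequence and not a binding site.

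**Figure D2:**
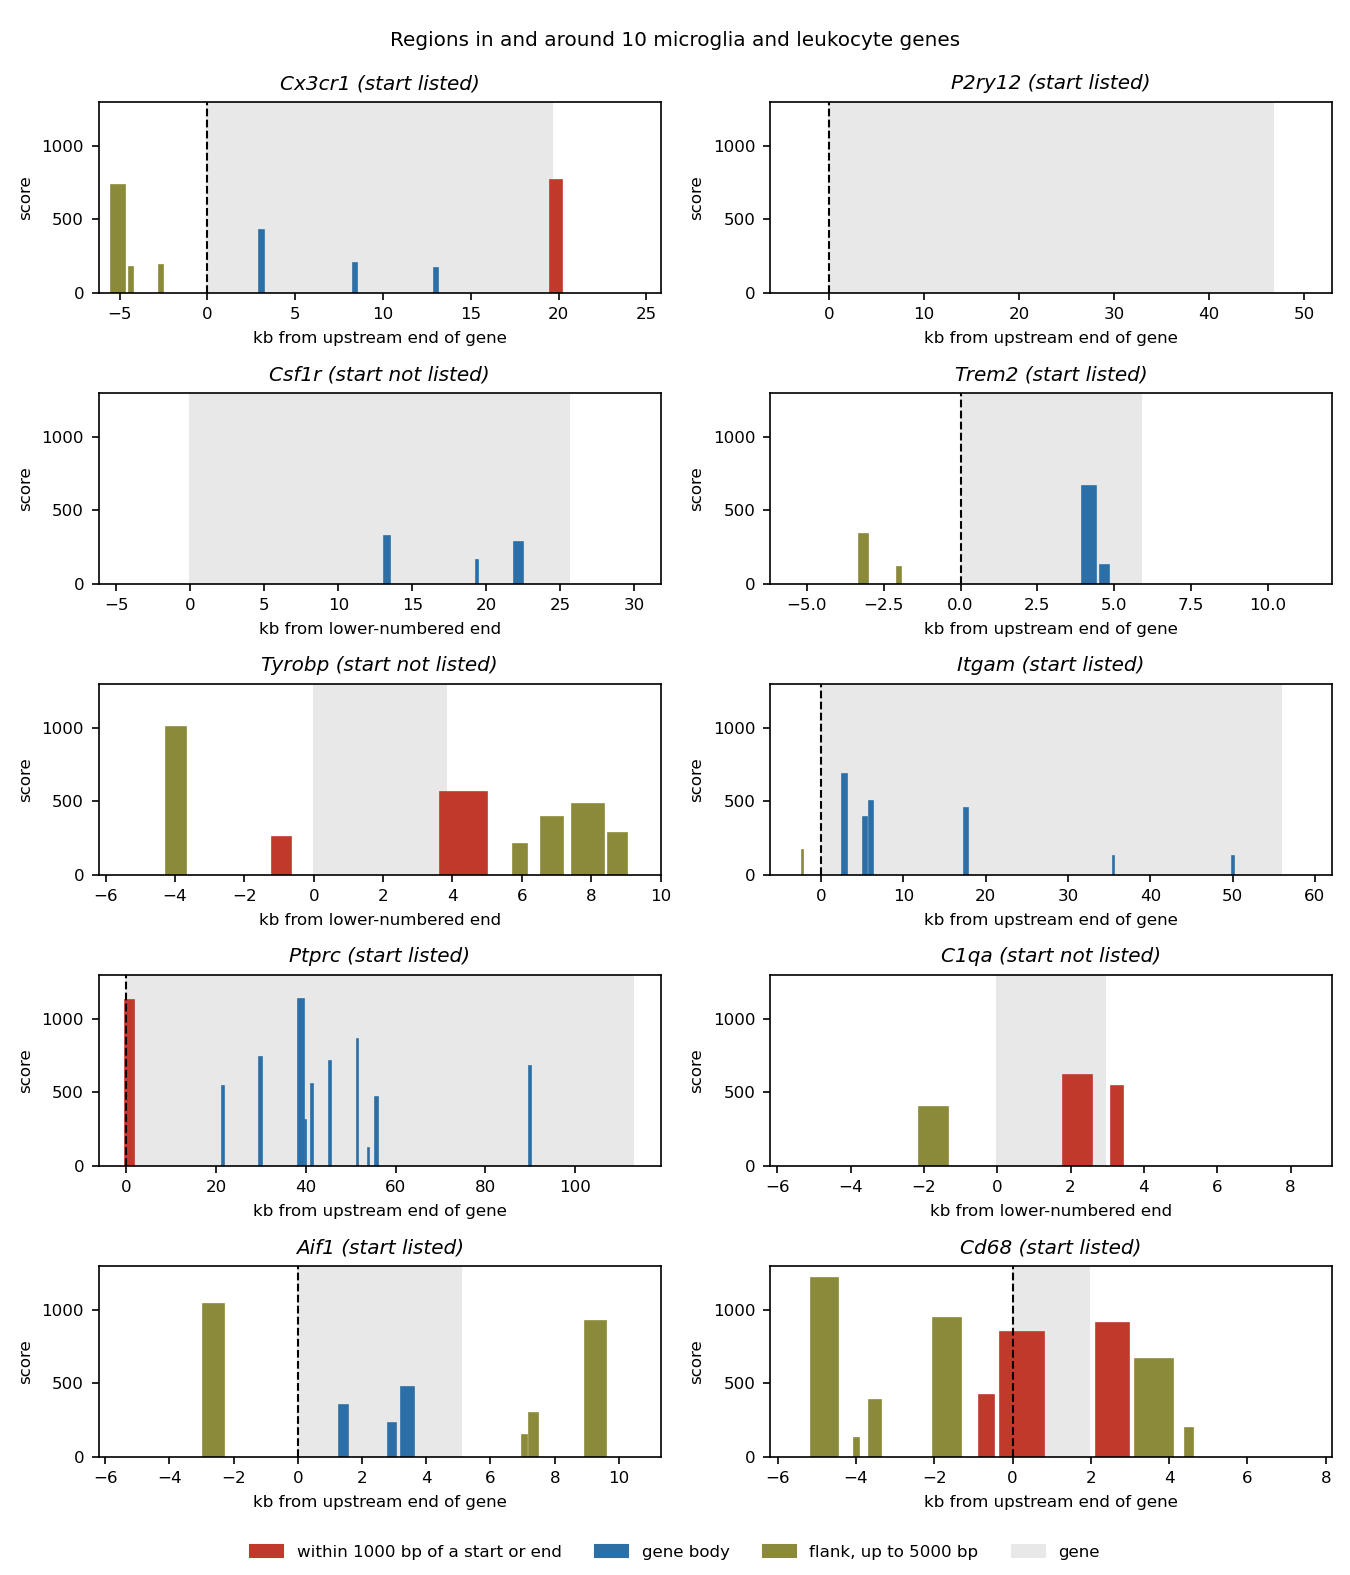
Score of each region (vertical axis, bar height) by its position in kb (horizontal axis, bar width to scale with a thin outline) in and around each gene, drawn in grey. For genes with a listed start the axis runs in the direction of transcription from the upstream end (dashed line), and for the others from the lower-numbered end; P2ry12 has no bar, and red bars at the dashed line occur in Ptprc and Cd68.

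Among the receptors, Cx3cr1 had 7 regions, none of them at its start. The gene lies on the minus strand of chromosome 9 (120048683 to 120068296). The nearest region to the start lay 2555 bp upstream of it and scored 187. Its highest score, 768, belonged to a region of 710 bp (120048071 to 120048780) over the opposite, downstream end of the gene, which stood at percentile 52.6 for its width. Inside the gene were regions with scores of 430, 202 and 168. The upstream flank held regions of 187, 177 and 732, the last of them 4715 bp away. The 3 regions in the body and the 2 lower ones in the flank were all 310 bp or narrower, and for their widths they stood between percentile 30.8 and percentile 71.3. The number of regions was close to that of genes of like length: 2444 protein-coding genes within 20% of its length had a median of 6.0.

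P2ry12 had no region. The gene covers 46715 bp of chromosome 3 (59216271 to 59262985, minus strand) and lies wholly within the borders of Med12l, which encodes a subunit of the Mediator complex. The nearest region on its downstream side, 720 bp wide with a score of 1002 (59208701 to 59209420), was 6851 bp away, inside P2ry13, a neighbouring nucleotide receptor gene. On the upstream side the nearest was 15406 bp from the start and scored 158. Of 1891 genes within 20% of its length, 47 (2.49%) were likewise without a region in the gene or its flanks, and their median was 8.0 regions.

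Csf1r had regions in its body only. It lies on chromosome 18 (61105572 to 61131139), and its 3 regions scored 327, 165 and 286. The lower-numbered 13109 bp of the gene held none, and the nearest region to the higher-numbered end stopped 3119 bp short of it. The region of 286 (61127451 to 61128020) was 570 bp wide, and 5.75% of regions of that width scored lower. The region of 327 stood at percentile 22.6 for its width and the narrow one, 170 bp, at percentile 58.4. No region lay in either flank. Genes of like length had a median of 6.0 regions, and 16.5% of them had fewer than Csf1r.

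Trem2 had 4 regions, of which 2 lay in the gene and 2 upstream of it. It is a gene of 5876 bp on the plus strand of chromosome 17 (48346401 to 48352276). The 2 flank regions lay 3011 and 1951 bp before the start and scored 338 and 117. In the gene, 3940 bp from the start, a region of 470 bp scored 665 (48350341 to 48350810), at percentile 65.1 for its width. Its neighbour 110 bp further on was 300 bp wide and scored 128 (48350921 to 48351220), and 0.44% of the 32596 regions of like width scored lower. A region above the middle and a region near the bottom of the scores for their widths thus lie side by side in Trem2.

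Tyrobp, the adaptor that carries the signal of TREM2 into the cell, had 7 regions, and 6 of them lay wholly outside it. The gene covers 3801 bp of chromosome 7 (30413782 to 30417582). A region of 530 bp ended 662 bp below the lower-numbered end and scored 255, and a region of 1360 bp crossed the higher-numbered end (30417431 to 30418790) and scored 565. This second region covered 152 bp of Tyrobp, or 4.0% of the gene, and also overlapped Hcst, which encodes the related adaptor DAP10. In the flanks, the region below the gene scored 1006, and the 4 above it scored 208, 395, 481 and 283. Altogether 5 of the 7 regions lay within 1000 bp of an end of Hcst or of Nfkbid, an inhibitor of NF-κB signalling, and 4 of those 5 share no base with Tyrobp. Those 5 regions were low for their widths, from percentile 5.8 to percentile 14.9, and the region of 255 stood at percentile 4.6. The region of 1006, 3672 bp from the gene and away from both neighbours' ends, stood at percentile 80.5.

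The integrin gene Itgam, whose product CD11b pairs with the beta-2 chain in the complement receptor of myeloid cells, had 7 regions and none at either end. It lies on the plus strand of chromosome 7 (128062640 to 128118491). The nearest region to the start was 2160 bp upstream and scored 166, and the first region inside began 2601 bp downstream and scored 683 (128065241 to 128065780), the highest of the gene. The next 3 inside scored 395, 500 and 458. The last 2, of 150 and 130 bp, scored 131 and 128. Scores in the part of the gene nearer the start were thus higher, and those regions were also wider, at 460 to 550 bp. For their widths all 7 regions stood between percentile 21.3 and percentile 59.7. Of genes of like length, 30.5% had fewer regions, and their median was 9.0.

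Ptprc, which encodes the leukocyte phosphatase CD45, had 11 regions, the most of the 10 genes, and no region wholly outside the gene. It is also the longest of them, at 112898 bp on the minus strand of chromosome 1 (138062859 to 138175756), and genes of like length had a median of 14.0. A region of 2150 bp (138174021 to 138176170) covered both listed starts with a score of 1127. That is a high score among all regions, but for its width it stood at percentile 54.8 of 384 regions. The highest score, 1136, belonged to a region of 1260 bp in the body (138136141 to 138137400), at percentile 73.3. The remaining 9 regions scored from 122 to 866, and that of 866, 440 bp wide, stood at percentile 85.5. The longest stretch of the gene without a region measured 33760 bp.

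C1qa, a chain of the first component of complement, had 3 regions around a gene of 2929 bp on chromosome 4 (136895916 to 136898844). One of 790 bp lay inside, 334 bp from the higher-numbered end, and scored 620 (136897721 to 136898510). It stood at percentile 31.7 for its width and covered 27.0% of the gene. The second began 167 bp beyond the same end, was 340 bp wide and scored 545, at percentile 78.8. The last one, in the other flank, scored 402 and lay within 1000 bp of an end of C1qc, another chain of the same complex. At its width of 790 bp, 9.05% of regions scored lower.

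Aif1, which encodes the calcium-binding protein IBA1 used to stain microglia, had 7 regions and none at its ends. It lies on the minus strand of chromosome 17 (35170986 to 35176083). The region nearest to the listed start lay inside the gene, 1252 bp away, and scored 353. The other regions inside scored 227 and 475. The highest scores were in the flanks, 1041 in the region 2319 bp upstream of the start (35178371 to 35179020) and 922 on the downstream side (35166491 to 35167150). For their widths these stood at percentile 80.7 and percentile 72.0, and no other protein-coding gene had an end within 1000 bp of either. Of genes of like length, 75.1% had fewer regions.

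Cd68, which encodes a glycoprotein of lysosomes, had 9 regions around the shortest of the 10 genes, 1958 bp on the minus strand of chromosome 11 (69664213 to 69666170). Of 652 genes of like length, 96.5% had fewer, and their median was 3.0. One of them touched the gene, a region of 1130 bp over the start (69665371 to 69666500) with a score of 852, at percentile 49.6 for its width. It covered 40.9% of the gene. A second region lay 471 bp upstream of the start and scored 422, and another lay 173 bp beyond the downstream end and scored 911. In the flanks the scores ran from 126 to 1216, the highest of all 58 regions (69670621 to 69671320). For its width the region of 1216 stood at percentile 87.2. Of the 9 regions, 6 lay within 1000 bp of an end of Eif4a1, a translation factor gene upstream, or of Mpdu1, a glycosylation gene downstream, and that over the Cd68 start was among them. The region of 1216 overlapped Eif4a1, as did those of 422, 945, 386 and 126. Those of 197 and 665 overlapped Mpdu1.

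Taken by place, 9 of the 58 regions lay within 1000 bp of an end of their gene (15.5%), 27 in a gene body (46.6%) and 22 in the flanks (37.9%). Over all protein-coding genes, pairs of a region and a gene were counted, so a region near several genes counts more than once. Of these pairs, 22.9% were at an end, 58.8% in the body and 18.3% in the flanks. These shares were not matched for gene length. Cd68, C1qa, Tyrobp, Aif1 and Trem2 are short, at 1958 to 5876 bp, beside flanks of 5000 bp on each side. Regions at an end came from Ptprc, Cd68, Cx3cr1, Tyrobp and C1qa. Body regions beyond the ends came from Ptprc (10), Itgam (6) and 3 each in Cx3cr1, Csf1r and Aif1, with 2 in Trem2. Cd68 and Tyrobp contributed 11 of the 22 flank regions, 6 and 5. Whether body regions lay in exons or introns was not analysed here, since the gene table gives no exons. At the limit of the flanks, the farthest regions taken were 4715 bp from Cx3cr1 and 4689 bp from Tyrobp, with scores of 732 and 283. The nearest ones left out were 5126 bp from Aif1 and 5250 bp from Itgam, with scores of 1208 and 568.

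**Figure D3:**
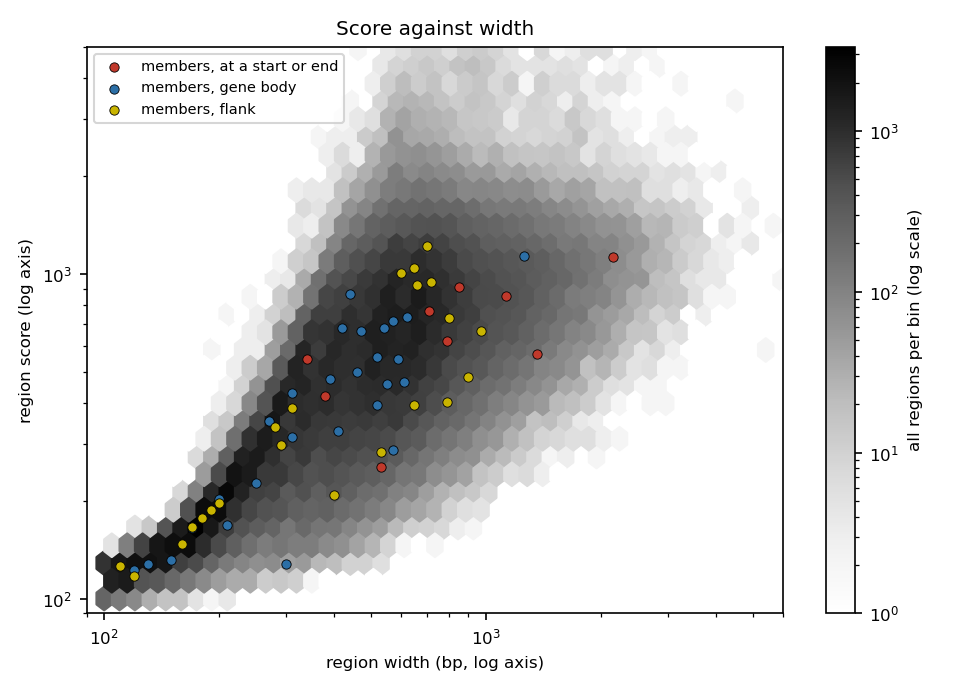
Score (vertical log axis) against width in bp (horizontal log axis) of each region; grey bins hold all regions on a log colour scale, cropped to scores of 90 to 5000 and widths of 90 to 6000 bp, and coloured points are the 58 regions of the microglia and leukocyte genes by place. The points follow the grey cloud, with scores of 117 to 1216, and the blue point at the lower edge of the cloud at 300 bp is the Trem2 region of 128.

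The 58 scores ranged from 117 to 1216 with a median of 426.0, against 462.0 over all regions. The median width was 465.0 bp for the 58 regions and 460.0 bp for all regions. For their widths the 58 regions had a median percentile of 46.1, and 27 of them stood above the 50th. Scores at or above the upper quartile of the whole list were reached by 11 regions (19.0%), and 25% of all regions reach it. Scores under the lower quartile belonged to 16 regions (27.6%), against 24.9% of all regions. Median scores per gene, in descending order, were 682.0 for Ptprc, 665.0 for Cd68, 545.0 for C1qa, 395.0 for Tyrobp and Itgam, 353.0 for Aif1, 286.0 for Csf1r, 233.0 for Trem2 and 202.0 for Cx3cr1. Each gene's lowest and highest scores overlapped those of the gene next to it in this order, and widths differed between genes as well. At matched width the order was another one, with median percentiles of 62.2 at Cx3cr1, 61.4 at Cd68, 54.8 at Ptprc and 51.3 at Aif1, and then 38.9 at Trem2, 33.1 at Itgam, 31.7 at C1qa, 22.6 at Csf1r and 12.5 at Tyrobp. Cx3cr1, lowest by score with flanks of 5000 bp, came first by this measure, and its regions had a median width of 210.0 bp. With flanks of 2000 bp Trem2 had the lowest median score (128) and Cx3cr1 had 316, and with flanks of 10000 bp Trem2 had 137 and Cx3cr1 202. The 12 regions within 1000 bp of another gene's end had a median percentile of 24.2 and the other 46 one of 52.0. Those 12 belong to Tyrobp, Cd68 and C1qa alone, and their percentiles split by gene. The 5 at Tyrobp stood at 5.8 to 14.9 and the 1 at C1qa at 9.05. The 6 at Cd68 stood at 33.6 to 69.6, so 24.2 describes neither part. The other 46 still include the Cd68 regions of 386, 126 and 1216, which overlap Eif4a1 away from its ends.

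Regions covered 0.0 to 40.9% of the gene sequence, with a median of 5.44% over the 10 genes and 7.64% over all protein-coding genes. Cd68 and C1qa were covered most, at 40.9% and 27.0%, and genes within 20% of their lengths had medians of 17.4% and 21.7%. P2ry12 was not covered, and Tyrobp, Cx3cr1, Itgam and Csf1r were covered at 4.0%, 4.17%, 4.21% and 4.5%. For these 4, genes of like length had medians of 20.1%, 9.76%, 6.58% and 8.49%. Ptprc, at 6.37%, was above the median of 5.6% for its length, and Aif1, at 17.9%, was near the median of 18.1%.

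**Figure D4:**
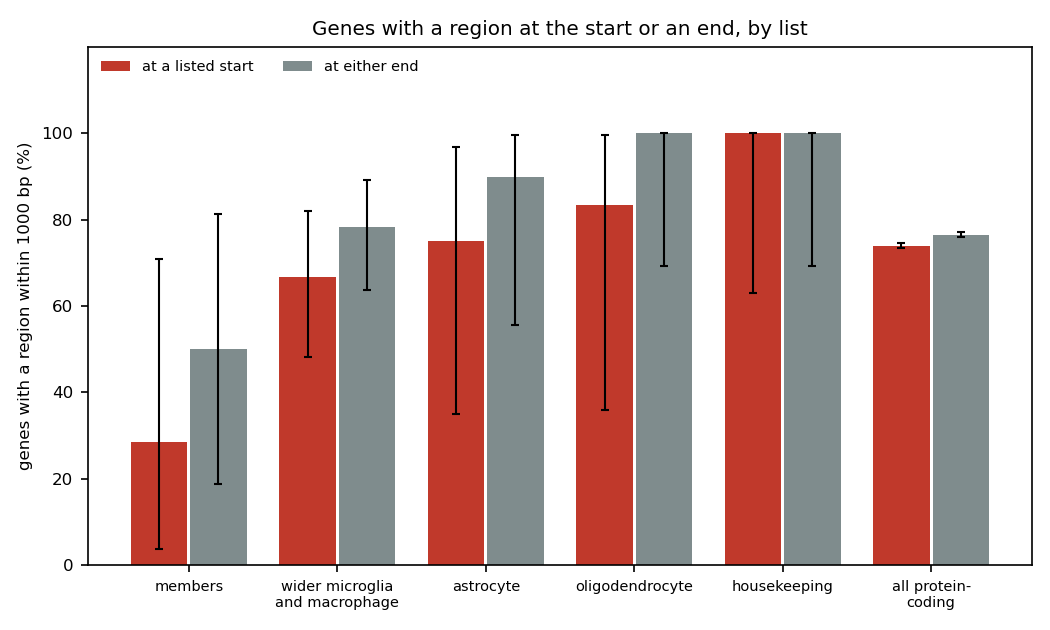
Percentage of genes (vertical axis) with a region within 1000 bp of a listed start (red) or of either end (grey), for the 10 microglia and leukocyte genes, 4 other gene lists and all protein-coding genes (horizontal axis); error bars are exact 95% intervals. The members' red bar stands at 28.6% and that of all genes at 74.0%, and the intervals of the short lists are wide.

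Of 46 other genes of microglia, macrophages and leukocytes and of the ligands of their receptors, 33 had a listed start, and 22 of these had a region there (66.7%, exact 95% interval 48.2 to 82.0), against the 74.0% of all genes. All 4 transcription factor genes with a listed start had one. Among these 46 genes the highest start scores were at Ikzf1 (1225) and Runx1 (1135), which encode regulators of blood cell development. Their regions were wide, at 2120 and 1360 bp, and for their widths stood at percentile 65.5 and percentile 70.7. All 4 genes of TREM2 and DAP12 signalling also had one. They were the kinase Syk (1018), the phospholipase Plcg2 (608), the phosphatase Inpp5d (607) and Hcst (395). For their widths these stood at percentile 75.2, 54.0, 9.78 and 12.5. The region at the Hcst start is also the Tyrobp flank region of 395, and that at the C1qc start is the C1qa flank region of 402. Of the ligands, Csf1 (455) and Cx3cl1, the fractalkine gene (740), had one, and their receptors are Csf1r and Cx3cr1, described above. The lowest start scores belonged to Sparc (172), a matricellular protein gene, and Vav1 (211), an exchange factor of leukocytes. For their widths, 1.32% and 0.602% of regions scored lower than these. No region was found at the starts of C1qb, P2ry13, Itgax, Fcer1g, Fcgr3, Fcrls, Mrc1, Lyz2, Cybb, Cd3e and Ccr2.

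In that wider list, all 11 genes with 11 or more CpG in the 300 bases had a region at the start, against 98.1% of all protein-coding genes with that many. Of the 22 with 10 or fewer, 11 had one, against 41.2% of all protein-coding genes. The 4 transcription factor genes had a median of 38.5 CpG, and the 9 macrophage and leukocyte genes with a listed start, of which 4 had a region, had a median of 4.0. In the lists of other cell types, 6 of 8 astrocyte genes (exact interval 34.9 to 96.8%), 5 of 6 oligodendrocyte genes (35.9 to 99.6%) and 8 of 8 housekeeping genes (63.1 to 100%) had a region at the start. The members had a median of 4.0 CpG, the astrocyte genes 5.5, the oligodendrocyte genes 11.5 and the housekeeping genes 23.5. The intervals of the members and of each of these 3 lists overlap. Such overlap does not show that the shares are alike, and no difference between the lists was tested.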

How the data were processed

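DNA from 8 mouse lines was captured with a SureSelect XT Mouse Methyl-Seq kit (Agilent) and bisulfite sequenced, per the labels' protocols. Novoalign 3.7.1, Picard and mm10 are named, per the submitters' processing notes; no source used here states how regions were called. The deposited score of each region is 1 whole number for the whole series, made by the authors; the track line declares narrowPeak, per the file headers. Regions were assigned to RefSeq genes (GRCm38.p6) in Python 3.11.15 with numpy 2.4.6 and pandas 2.3.3, by an overlap of at least 1 bp, and intervals came from scipy 1.17.1. All 10 member symbols matched; 7 had a listed start. Assignment was tested on simulated data. Coordinates count from 1. The members and lists were chosen with earlier results of these data known. All 10 members are described, and from the wider list the 2 highest and 2 lowest start scores and the genes without a start region are named. Syk, Plcg2, Inpp5d, Hcst, C1qc, Csf1, Cx3cl1, Gpr34 and the regions of Mrc1, Ccr2 and P2ry13 were added after their values were seen. The planned comparison of line groups was not run, because no value per line is given. Alternatives were other flanks, windows, overlaps, widths and a score of at least 200. The kit's target list was not used here, so captured and sequenced DNA are described together.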

Additional observations from a re-analysis of the deposited data

How the results depend on the processing

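Under the alternatives run, the 58 regions became 42 with flanks of 2000 bp, 78 with flanks of 10000 bp, 45 with scores of 200 or more and 57 with at least 50% of the region inside. With windows of 2000 bp, 4 of the 7 genes with a listed start had a region at it, Trem2 and Aif1 being added, against 77.4% of all genes; it stayed at Ptprc and Cd68 with windows of 500 bp, region midpoints and scores of 200 or more. With windows of 2000 bp, 7 genes had a region at either end, against 81.0% of all genes. The median number of regions per gene, 7.0, became 3.5 with flanks of 2000 bp and 7.5 with flanks of 10000 bp, at which P2ry12 had 1 region. The median score stayed between 422.0 and 462.0, and the median percentile for width between 46.1 and 49.3. Single genes' numbers moved by over 1.5 times in 4 genes with the narrower and 5 with the wider flanks. With flanks of 2000 bp the median score became 255.0 at Tyrobp, 128.0 at Trem2 and 316.0 at Cx3cr1, and with flanks of 10000 bp it became 137.0 at Trem2. The flank sets which regions enter each median. Trem2 had 3 regions with flanks of 2000 bp, 4 with 5000 bp and 7 with 10000 bp. No paired analysis was possible because the list has no column per line, and for the same reason no line could be left out. Depth per line is unknown, so a gene without a region cannot be told apart from one that was captured too little.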

Other observations

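Several genes of the wider list without a region at the start, or without a listed start, had high scoring regions. They were picked after their values were seen. Mrc1, the mannose receptor gene of macrophages, had 3 regions, all in its body, with scores of 145, 2151 and 793. The region of 2151 (chromosome 2, 14294431 to 14295060) exceeded 98.2% of regions of like width. Those of 145 and 793 stood at percentile 43.4 and percentile 60.7. Ccr2, a chemokine receptor gene of monocytes, had 2, with scores of 840 in the gene and 1333 at 3371 bp from it. For their widths these stood at percentile 47.7 and percentile 88.3. The single region of P2ry13 (1002), at percentile 74.2 for its width, is the one nearest to P2ry12. Gpr34, an X-linked receptor gene of microglia with no listed start, had 3 regions that overlapped the gene, with scores of 495, 893 and 992. Their percentiles for width were 29.4, 80.4 and 83.8. No region was found in or within 5000 bp of Fcrls, a microglial receptor-like gene, or Lyz2, the lysozyme gene of macrophages.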
